A study of Drosophila melanogaster with 18 samples.

Results

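Within a set of 12 arrays of Kc cells, 79 of 16637 measured transcripts were set apart by knockdown of SuHw (Suppressor of Hairy-wing). They were chosen by their values: in 74 the lowest of the 4 arrays with SuHw knockdown was at least 1.5-fold above the highest of the 8 arrays without it, and in 5 the highest of the 4 was at least 1.5-fold below the lowest of the 8. That distance between the nearest arrays is called the gap. These shares are 0.445% and 0.0301% of all transcripts, and since the rule fixed them they are a description and no test.

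RNA was measured in Kc, a Drosophila melanogaster cell line of embryonic origin, on NimbleGen arrays with 1 colour (Cy3), as the log2 signal of each transcript. Cells had been given double-stranded RNA on each of 3 days and were collected on day 4, control cells included. The 12 arrays comprise SuHw and CP190 knockdowns together (SuHw+CP190), SuHw knockdown, CTCF knockdown, BEAF and CTCF together (BEAF+CTCF), CTCF and CP190 together (CTCF+CP190) and BEAF and CP190 together (BEAF+CP190). A further 6 arrays hold CP190 knockdown, BEAF knockdown and control cells, labelled wild type, that received double-stranded RNA against beta-galactosidase (B-gal). Each of the 9 groups has 2 arrays, called biological replicates from independent experiments in the series' design text, all from a single cell line. The cell line is worded differently in the labels of the last 3 groups, called the first set here, than in the other 6, the second set. Each group lies in 1 set, so set and knockdown cannot be told apart in any comparison between sets.

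SuHw is a zinc finger protein that binds DNA and is best known from the insulator of the gypsy retrotransposon, where it works with the cofactors CP190 and Mod(mdg4). Insulators limit the reach of enhancers and of chromatin states. BEAF and CTCF are other DNA-binding insulator proteins found with CP190, and in fly ovaries SuHw is also known as a repressor of genes that are normally active in neurons. The sources used here pair only 16 of the 16637 transcripts with 1 gene symbol, none of them among the 79, so the members are called by their FlyBase identifier and have no role assigned. For the same reason neither the level of the SuHw transcript itself nor the marker genes of the cell line were analysed here. The deposited values carry no detection call, so it is unknown which low signals are background, and a fold in signal need not equal the fold in RNA. Each array reads the RNA of a whole culture, so fewer cells of a kind and less RNA per cell cannot be told apart.

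The 74 transcripts that were higher with SuHw knockdown differed from the 8 other arrays by 1.05 to 5.57 on the log2 scale, with a median of 1.94, a 3.83-fold higher signal. The difference reached 2 in 32 of them and 3 in 9. Across all transcripts the median of the same difference was -0.026. In the arrays without SuHw knockdown 17 of the 74 averaged below the lower quartile of all transcripts (5.44), 45 between it and the median (9.29), 12 between the median and the upper quartile (11.73) and 0 above. With SuHw knockdown, 3 of the 74 averaged below that lower quartile, 37 up to the median, 27 up to the upper quartile and 7 above it. Signals of different transcripts come from different probes, so these places among all signals are no ranking of RNA levels, and the shift between both sides follows from the rule.

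**Figure D1:**
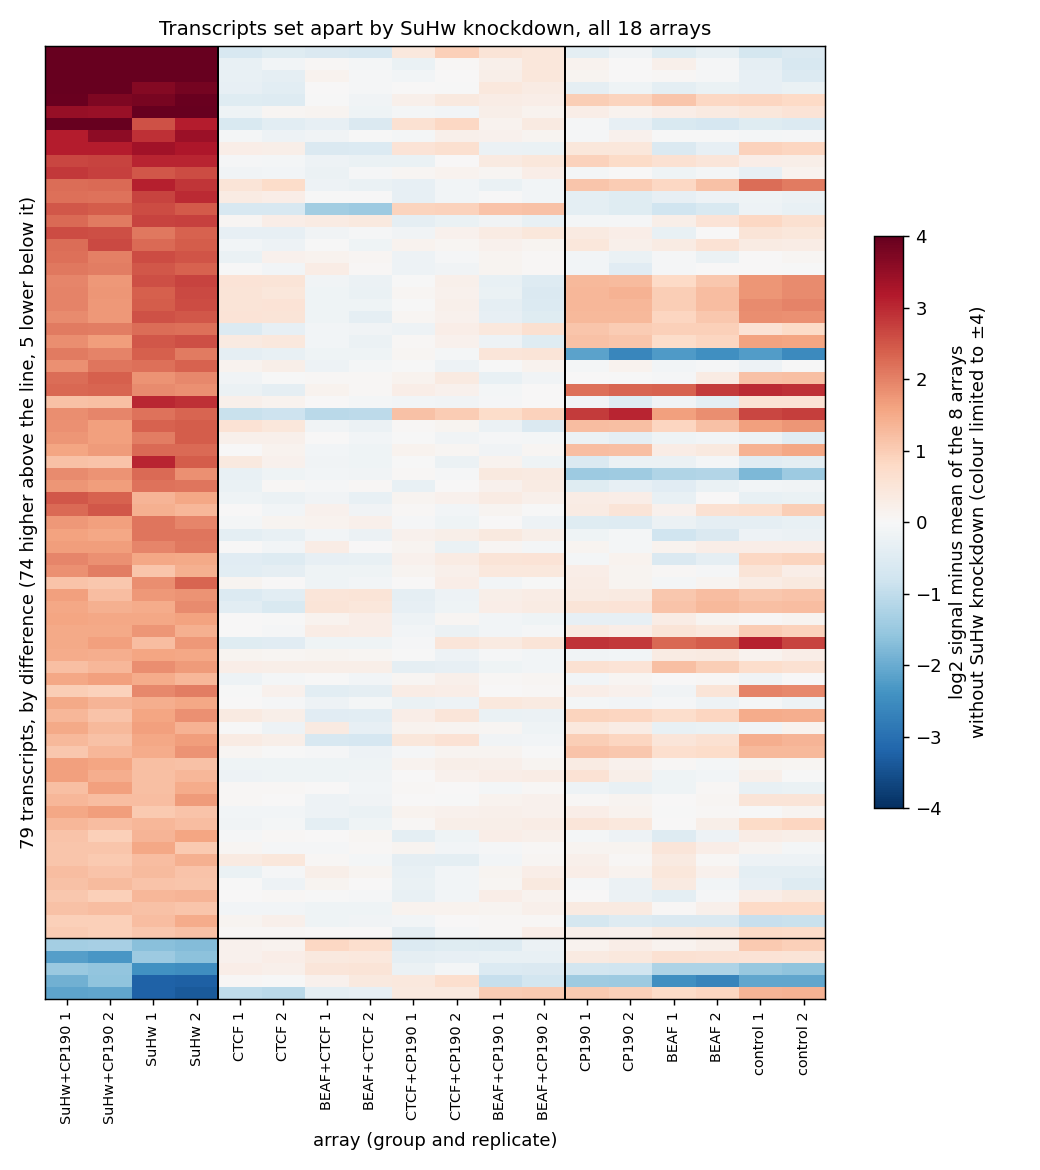
Each row is 1 of the 79 transcripts, sorted by the difference between arrays with and without SuHw knockdown, and each column is 1 of the 18 arrays, the first 4 with SuHw knockdown, then the other 8 of the second set, then the 6 of the first set. Colour gives the log2 signal minus the mean of the 8 second-set arrays without SuHw knockdown, and the first-set columns on the right show members both above and below that mean.

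FBtr0077686, the member with the largest difference, had log2 signals of 10.73 and 10.63 in SuHw+CP190 and 10.82 and 10.84 in SuHw arrays. Without SuHw knockdown it had 4.54 and 4.70 in CTCF, 4.62 and 4.54 in BEAF+CTCF, 5.63 and 6.13 in CTCF+CP190 and 5.71 and 5.66 in BEAF+CP190 arrays. In the first set it had 4.80 and 5.05 in CP190, 4.69 and 4.91 in BEAF and 4.50 and 4.62 in control arrays. All 4 arrays with the knockdown thus lay far above all 14 others, and among those 14 the 4 arrays of CTCF+CP190 and BEAF+CP190 were the highest.

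The second, FBtr0088597, had 11.5 and 11.40 in SuHw+CP190 and 11.27 and 11.22 in SuHw arrays. The 8 other arrays of the second set ranged from 6.53 in CTCF replicate 1 to 7.28 in BEAF+CP190 replicate 2. It had 6.99 and 6.85 in CP190, 7.02 and 6.80 in BEAF and 6.48 and 6.21 in control arrays. The 14 arrays without SuHw knockdown thus ranged from 6.21 to 7.28, all below the arrays with it.

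Of the 5 transcripts that were lower with SuHw knockdown, 2 differed from the other 8 arrays by more than 2 on the log2 scale. FBtr0084288 had 6.12 and 6.16 in SuHw+CP190 and 5.0 and 4.89 in SuHw arrays. It had 7.22 and 7.15 in CTCF, 7.84 and 7.90 in BEAF+CTCF, 8.62 and 8.62 in CTCF+CP190 and 9.26 and 9.3 in BEAF+CP190 arrays. The 8 arrays without the knockdown thus did not share a level, and the group means stepped up from CTCF to BEAF+CP190. First-set arrays had 9.29 and 9.18 for CP190, 9.01 and 9.10 for BEAF and 9.58 and 9.63 for control, so both control arrays lay above all 8.

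FBtr0084471 had 5.90 and 6.23 in SuHw+CP190 and 4.60 and 4.55 in SuHw arrays, and between 6.89 and 8.49 in the 8 others. In the first set it had 6.41 and 6.37 in CP190, 5.38 and 5.17 in BEAF and 5.75 and 5.76 in control arrays. Its control and BEAF signals therefore lay within the range of the SuHw knockdown arrays, unlike those of FBtr0084288.

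The other 3 lower members are named because they complete the 5, and were chosen after their values were seen. FBtr0086519 averaged 9.32 ± 0.41 with SuHw knockdown (SD, n = 4) and 11.23 ± 0.35 without (SD, n = 8). FBtr0080166 averaged 8.28 ± 0.54 in the 4 knockdown arrays and 10.26 ± 0.43 in the 8 others (SD). FBtr0070832 averaged 6.98 ± 0.21 in the 4 and 8.50 ± 0.54 in the 8 (SD). The 4 arrays with the knockdown are 2 groups, so these SDs hold the difference between SuHw+CP190 and SuHw as well as that between replicates.

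**Figure D2:**
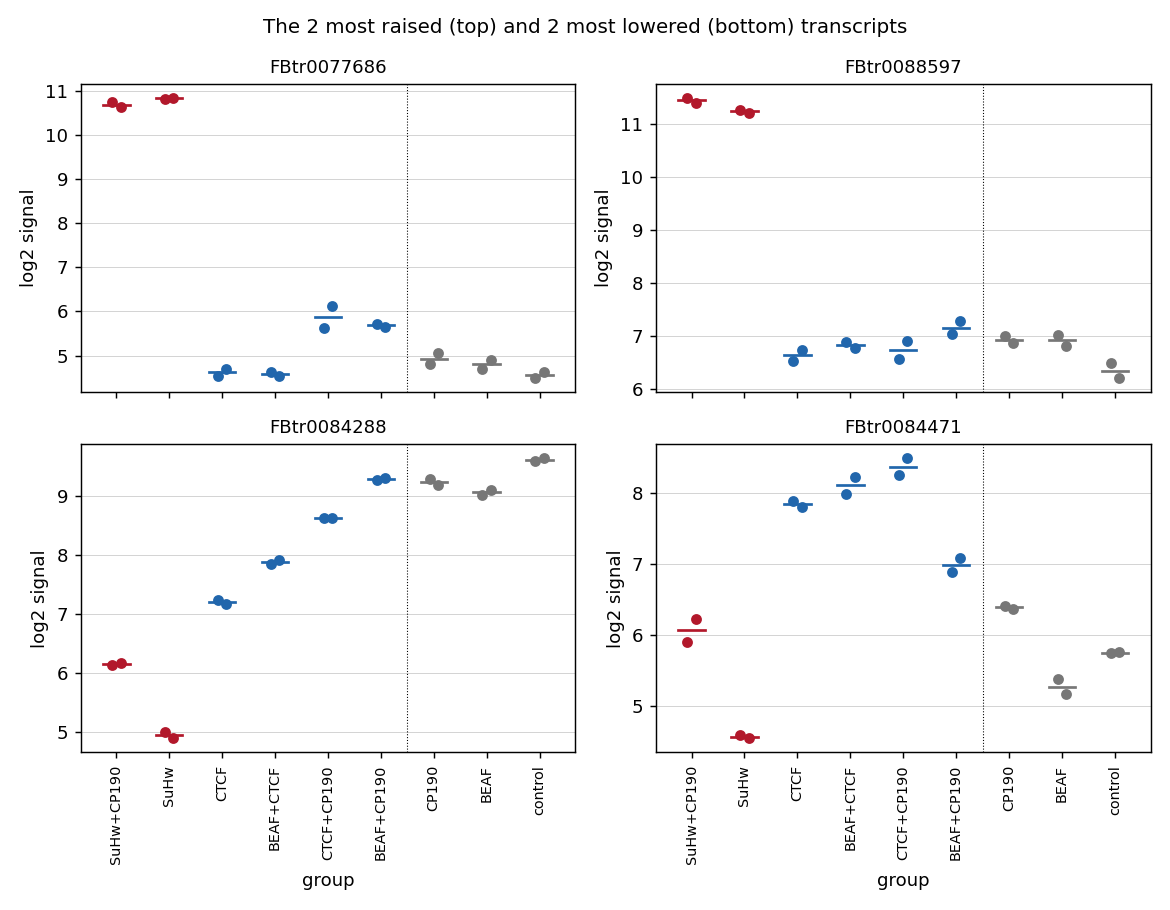
Points are the log2 signals of the 2 arrays of each group and bars their means, for the 2 transcripts furthest above (FBtr0077686, FBtr0088597) and the 2 furthest below the arrays without SuHw knockdown (FBtr0084288, FBtr0084471), with SuHw knockdown in red, the other second-set groups in blue and the first set in grey right of the dotted line. FBtr0077686 stands at 10.63 to 10.84 in the red groups, and control lies at 5.75 and 5.76 for FBtr0084471, between the 2 red groups.

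At the threshold, the last transcript counted as higher was FBtr0072602, with a gap of 0.59 between the nearest arrays, and the first one left out was FBtr0112903, with 0.58. FBtr0072602 averaged 11.55 ± 0.24 with SuHw knockdown (SD, n = 4) and 10.12 ± 0.48 without (SD, n = 8), while FBtr0112903 averaged 8.61 ± 0.31 and 7.59 ± 0.10. On the lower side FBtr0084471 was just inside, with a gap of 0.67, and FBtr0110861 just outside, with 0.54.

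The 79 identifiers are not 79 separate patterns. Over the 14 arrays without SuHw knockdown, 19 of the 74 higher members fell into 5 groups linked by correlations of at least 0.95, and the other 60 members into none. A member needed such a correlation with only 1 other of its group. The lowest correlation was 0.85 within the group of 9 and 0.84 within the group of 4. These groups were formed after the values were seen and are a description. The 14 arrays are 7 groups in 2 sets, so they are not 14 independent points, and whether the transcripts of such a group come from 1 gene was not tested. The largest group had 9 members, FBtr0072602 among them, whose difference between arrays with and without SuHw knockdown was 1.42 to 2.61. In these 9 the control mean was 1.41 to 2.16 above the mean of the 8 arrays without SuHw knockdown, and 0.003 to 0.54 below the mean of the 4 with it. A group of 4 held FBtr0082780 and FBtr0086699, whose control signals exceeded those with SuHw knockdown.

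The 6 first-set arrays took no part in the choice, and show where each member stood after CP190 or BEAF knockdown alone and in control cells. In 48 of the 74 higher members all 4 arrays with SuHw knockdown also lay at least 1.5-fold above all 6 first-set arrays, where 2.25% of all transcripts did. In another 12 they lay above by less, and in 14 the ranges overlapped or crossed. Of the 5 lower members, 3 lay at least 1.5-fold below all 6 (2.28% of all transcripts) and 2 overlapped. Those 3 are FBtr0084288, FBtr0086519 and FBtr0070832, and the 2 are FBtr0084471 and FBtr0080166. The 4 arrays with SuHw knockdown are the ones the rule used and the comparison crosses the sets, so it has no test.

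Set against control alone, the 74 divided by level. The control mean was within 1.5-fold of the mean of the 8 arrays without SuHw knockdown for 41 members, at least 1.5-fold above it for 29 and at least 1.5-fold below it for 4. Among all transcripts 81.3%, 10.0% and 8.67% fell in these classes. The rule chose the members by their low signals in these same 8 arrays, so nothing is read from their shares against those of all transcripts. The 4 below, chosen after their values were seen, were FBtr0273218, FBtr0072017, FBtr0072394 and FBtr0077686. FBtr0273218 had 8.88 and 8.78 in SuHw+CP190, 9.22 and 8.90 in SuHw, 6.45 to 7.34 in the other second-set arrays and 4.58 and 4.27 in control arrays. Its CP190 arrays had 4.67 and 4.19 and its BEAF arrays 4.55 and 4.37, close to control. All 8 second-set arrays without SuHw knockdown were thus above all 6 first-set arrays here, and the 4 with it higher still. Set and knockdown cannot be told apart in that step.

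In 4 of the 74 the control mean was above even the mean with SuHw knockdown. FBtr0086699 had 10.13 and 10.16 in SuHw+CP190, 9.71 and 9.67 in SuHw, 7.47 to 8.12 in the other 8 arrays of the second set and 10.83 and 10.77 in control arrays. FBtr0082780 averaged 7.49 with SuHw knockdown, 5.96 in the 8 others and 8.86 in control. FBtr0076529 averaged 11.32 with SuHw knockdown and 11.95 in control, and FBtr0078025 averaged 8.76 and 9.24. These 4 are also named after their values were seen. In CP190 and BEAF arrays of the first set FBtr0086699 averaged 10.11 and 10.41, and FBtr0082780 8.82 and 8.31, also above the mean with SuHw knockdown. FBtr0076529 averaged 12.16 and 10.98 there, and FBtr0078025 7.50 and 7.47. For these members the SuHw knockdown arrays were high relative to the other insulator knockdowns of their set, and not relative to control. Control lies in the other set, so set and knockdown cannot be told apart.

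**Figure D3:**
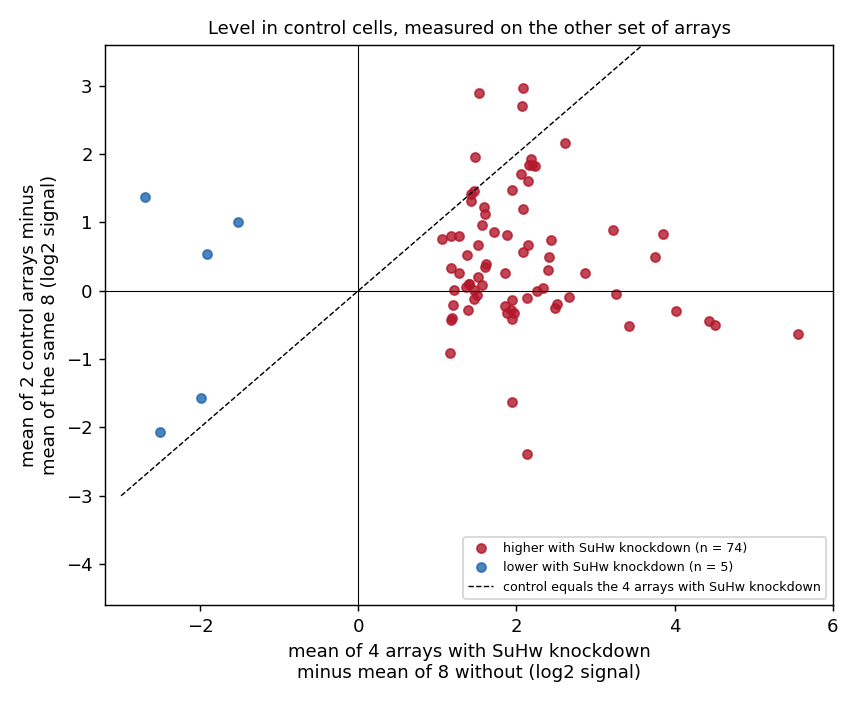
Each point is 1 of the 79 transcripts, with the mean of the 4 arrays with SuHw knockdown on the x axis and the mean of the 2 control arrays on the y axis, both in log2 signal minus the mean of the 8 second-set arrays without SuHw knockdown. Points on the dashed line have equal signals in control and with SuHw knockdown, and 4 of the 74 higher members lie above it.

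Because the rule used all 12 second-set arrays, transcripts were also chosen on 6 of them by the same gap and read in the other 6, a check added after the data were examined. Chosen on CP190-depleted arrays (SuHw+CP190 against CTCF+CP190 and BEAF+CP190), 135 transcripts were higher and 9 lower. In SuHw against CTCF and BEAF+CTCF arrays, which had no part in that choice, 132 of the 135 rose, 1 fell and 2 did not pass (limma with Benjamini-Hochberg adjustment over all transcripts, adjusted p under 0.05), where 12.5% of all transcripts rose. All 9 fell, where 16.7% of all transcripts did. The median change was 1.48 for the 135 and -1.88 for the 9. In those arrays 127 of the 135 did not overlap (14.6% of all transcripts) and 105 met the full gap (1.36%), while all 9 did not overlap (22.5%) and met it (0.715%). The changes, overlap and gap were read from those arrays alone, but the limma calls were not free of the choice. Their variance came from a model of all arrays, those of the choice included. The 135 hold all 74 higher members and the 9 all 5 lower ones. By the rule these members meet the gap in the unused arrays, so the check adds nothing on them.

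Chosen the other way, on the arrays without CP190 knockdown, 226 transcripts were higher and 119 lower with SuHw knockdown. In SuHw+CP190 against CTCF+CP190 and BEAF+CP190, 186 of the 226 rose and 40 did not pass, with a median change of 0.78, where 3.91% of all transcripts rose. Of the 119, 76 fell, 1 rose and 42 did not pass, with a median of -0.39, where 3.10% of all transcripts fell. In that choice, and in the reading of the first one, every array without SuHw knockdown carried CTCF knockdown. A change from SuHw and an opposite one from CTCF therefore cannot be told apart there. Of the 4 second-set groups without SuHw knockdown, only BEAF+CP190 lacked CTCF knockdown. Its mean was the highest of the 4 in 32 of the 74 higher members and the lowest in 8. The rule used these arrays and the share over all transcripts was not computed, so nothing is read from these counts. In the unused arrays 187 of the 226 did not overlap (9.53% of all transcripts) and 105 met the full gap (0.811%). Of the 119, 76 did not overlap (13.7%) and 9 met it (0.0541%). The limma calls of this choice rest on the same model of all arrays. The 226 and the 119 again hold all 74 higher and all 5 lower members.

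The same was done with the replicates. Of 96 transcripts higher by the gap in the replicate 1 arrays alone, 95 did not overlap between arrays with and without SuHw knockdown in replicate 2, where 5.64% of all transcripts were higher without overlap. Of 110 chosen on replicate 2, all 110 did not overlap in replicate 1 (6.15% of all transcripts). For lower transcripts the counts were 8 of 9 (8.06%) and 11 of 11 (13.4%). The full gap was met in replicate 2 by 83 of the 96 (0.661%) and 5 of the 9 (0.0661%), and in replicate 1 by 83 of the 110 (0.577%) and 5 of the 11 (0.0541%). The 96 and the 110 each hold all 74 higher members, and the 9 and the 11 all 5 lower ones. By the rule these members meet the gap in both replicates, so the check adds nothing on them. The replicates of a group share the same knockdowns. For the other transcripts the check therefore bears on the repeat of the experiment and not on which knockdown set the level.

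**Figure D4:**
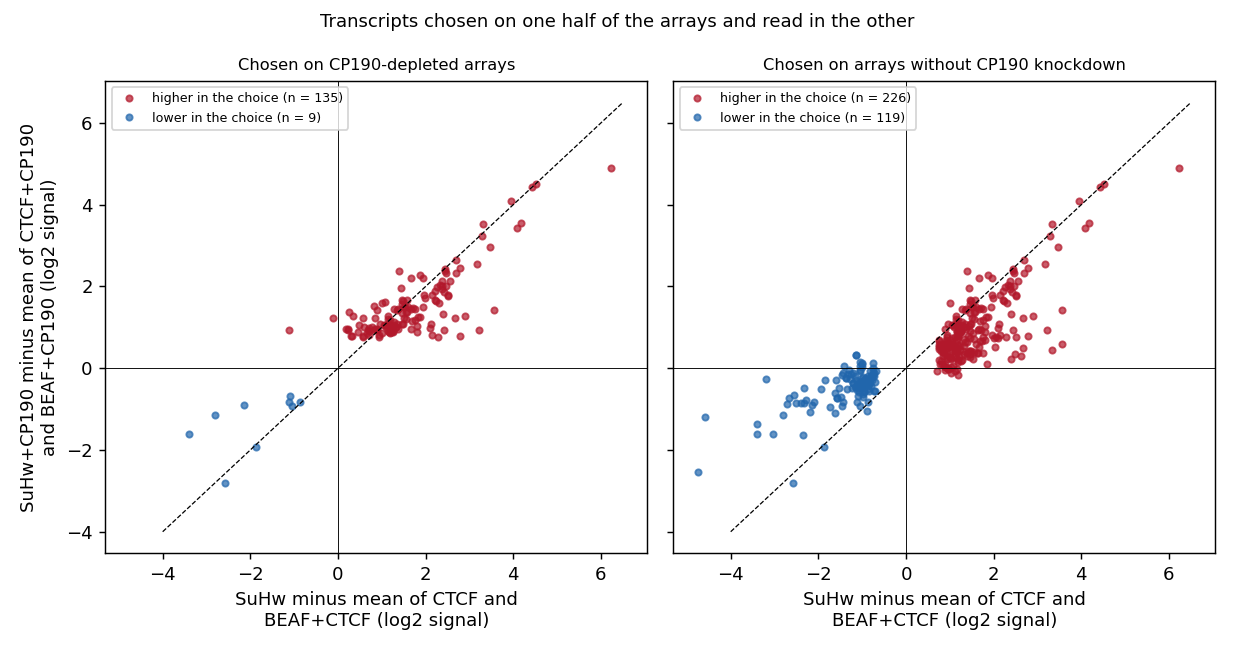
Each point is a transcript chosen on the arrays named above its panel, with SuHw minus the mean of CTCF and BEAF+CTCF on the x axis and SuHw+CP190 minus the mean of CTCF+CP190 and BEAF+CP190 on the y axis, in log2 signal. In the left panel the 135 transcripts chosen as higher have a median of 1.48 on the x axis, which played no part in their choice, and in the right panel the 226 have a median of 0.78 on the y axis.

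The members differed in what a CP190 knockdown added to SuHw knockdown. In SuHw+CP190 against SuHw, a contrast within the 4 arrays that the rule pooled and whose size the gap limits, 33 of the 79 fell and 16 rose, where 13.7% of all transcripts fell, 14.6% rose and 28.4% passed in either direction. Of the 74 higher members, 32 fell, 12 rose and 30 did not pass, with a median of -0.20 (0.01 over all transcripts) and a range of -1.77 to 1.17. Of the 5 lower ones, 4 rose and 1 fell. The rule required both groups to clear the gap, so a transcript that lost the difference in the double knockdown could not enter the list.

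FBtr0082244 fell most, with 7.91 and 7.94 in SuHw+CP190 and 9.75 and 9.64 in SuHw arrays, a change of -1.77 (SE 0.10, adjusted p = 1.08e-07). FBtr0072021 had 5.92 and 5.90 in SuHw+CP190 and 7.82 and 7.19 in SuHw arrays, a change of -1.59 (SE 0.18, adjusted p = 2.69e-05). Both stayed above all 8 arrays without SuHw knockdown, as the rule demands. The largest rises were in 2 lower members, FBtr0084471, by 1.49 (SE 0.12, adjusted p = 1.52e-06), and FBtr0084288, by 1.2 (SE 0.06, adjusted p = 3.6e-08). In both, SuHw+CP190 arrays lay between the SuHw arrays and the rest of the second set.

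Adding CP190 knockdown to CTCF, on arrays without SuHw knockdown, raised 23 of the 79 and lowered 17, where 12.6% of all transcripts rose, 11.8% fell and 24.4% passed in either direction. These arrays are among those the rule used, so the members' share is a description. FBtr0076529 rose most, with 10.40 and 10.26 in CTCF+CP190 and 8.36 and 8.41 in CTCF arrays, a change of 1.94 (SE 0.10, adjusted p = 9.82e-08). FBtr0081104 had 9.13 and 9.17 in CTCF+CP190 and 7.61 and 7.60 in CTCF arrays, a rise of 1.54 (SE 0.07, adjusted p = 3.56e-08). FBtr0087911 and FBtr0072057 fell by 0.84 (SE 0.12) and by 0.77 (SE 0.11). Leaving out any array of CTCF+CP190 or CTCF left fewer calls in each direction, both among the members and among all transcripts.

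Both CP190 double knockdowns without SuHw were then set against CTCF and BEAF+CTCF. In 20 of the 74 higher members all 4 arrays of CTCF+CP190 and BEAF+CP190 lay above all 4 of CTCF and BEAF+CTCF, where 9.36% of all transcripts did. In 3 of the 74 they lay below, where 9.41% did. The rule used these arrays too, so both counts are a description. The mean difference exceeded 1 on the log2 scale in 3 of the 74, chosen after their values were seen, namely FBtr0077686, FBtr0076529 and FBtr0081104. Within the second set, the signals of those 3 in CTCF+CP190 and BEAF+CP190 arrays lay between those in CTCF and BEAF+CTCF arrays and those with SuHw knockdown. In the first set none of the 3 passed as higher in CP190 against control, with changes of 0.37 (adjusted p = 0.0547), 0.21 (adjusted p = 0.141) and -0.20 (adjusted p = 0.0411).

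The effect of adding CP190 knockdown was compared between the SuHw and the CTCF background, as the difference of the 2 effects within the second set. It passed for 17 of the 79, higher with SuHw in 5 and lower in 12, where 1.14% of all transcripts were higher, 0.787% lower and 1.93% either. The rule chose the members on these same 8 arrays by their distance between backgrounds, so nothing is read from the members' share against that of all transcripts, and the values below are descriptions of single members. FBtr0076529 was at -0.35 with SuHw and 1.94 with CTCF, a difference of -2.29 (SE 0.15, adjusted p = 4.13e-06). FBtr0081104 was at -0.07 with SuHw and 1.54 with CTCF, a difference of -1.62 (SE 0.10, adjusted p = 4.13e-06). Their log2 signals in SuHw arrays were 11.41 and 11.57, and 10.85 and 10.71.

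In the opposite direction, FBtr0080166 rose by 0.94 with SuHw and fell by 0.39 with CTCF, a difference of 1.33 (SE 0.09, adjusted p = 5.78e-06). FBtr0070832 rose by 0.36 with SuHw and fell by 0.67 with CTCF, a difference of 1.03 (SE 0.13, adjusted p = 0.000867). Both are lower members, and in both the CP190 knockdown narrowed the distance between the SuHw and the CTCF backgrounds. Without any 1 of the 8 arrays fewer members were called higher than with all arrays, while the number called lower moved either way. The calls over all transcripts also changed with the array left out.

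**Figure D5:**
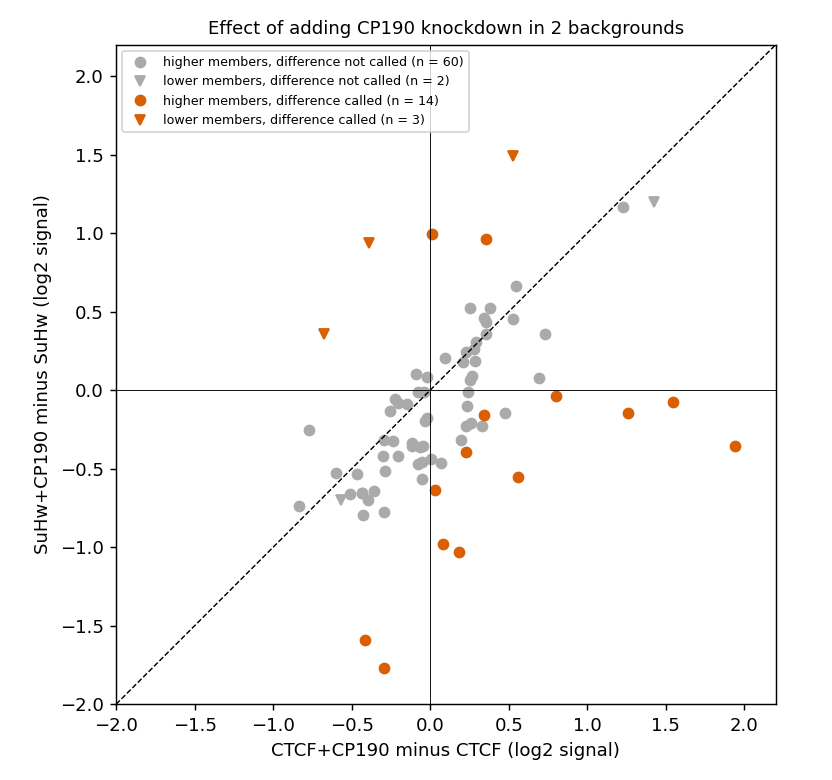
Each point is 1 of the 79 transcripts, with the change from CTCF to CTCF+CP190 arrays on the x axis and that from SuHw to SuHw+CP190 on the y axis, both in log2 signal. Orange points are the 17 members whose difference between the 2 effects passed the test, triangles are the 5 lower members, and the dashed line marks equal effects.

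Across backgrounds with no array in common, 10 of the 12 higher members that rose in SuHw+CP190 against SuHw also rose in CTCF+CP190 against CTCF, which is 10 of the 21 that rose there. Of all transcripts that rose with SuHw 55.8% also rose with CTCF, which is 64.9% of those that rose with CTCF. Of the 32 that fell with SuHw, 11 fell with CTCF (11 of 14), 3 rose and 18 did not pass. Among all transcripts that fell with SuHw 54.1% fell with CTCF (62.7% of those) and 0.569% rose. Of the same 32, 17 also fell in CP190 against control (17 of 30) and 2 rose, where the shares over all transcripts were 34.2% (24.2%) and 13.0%. These overlaps are counts, no test of them was made, and nothing particular to the members is read from them.

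BEAF knockdown added to CTCF raised 12 of the 79 and lowered 15, where 11.9% of all transcripts rose, 10.0% fell and 21.9% passed in either direction. Here too the arrays are among those the rule used, and nothing is read from the members' share. FBtr0077058 had 7.46 and 7.41 in BEAF+CTCF and 6.54 and 6.35 in CTCF arrays, a rise of 0.99 (SE 0.11, adjusted p = 5.92e-05), and FBtr0077061 rose by 0.97 (SE 0.11). FBtr0072602 fell by 0.94 (SE 0.07) and FBtr0087911 fell by 0.85 (SE 0.12). Fewer members rose and fewer fell without either array of BEAF+CTCF or without CTCF replicate 2, and the same held over all transcripts.

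With CP190 depleted in both groups, BEAF+CP190 against CTCF+CP190, 12 of the 79 were higher and 12 lower, where 2.98% of all transcripts were higher, 2.11% lower and 5.09% either. The rule chose the members on these arrays among others, so nothing is read from the members' share against that of all transcripts. FBtr0084471 was lower by the largest amount, with 6.89 and 7.08 in BEAF+CP190 and 8.25 and 8.49 in CTCF+CP190 arrays, a difference of -1.38 (SE 0.12, adjusted p = 1.35e-05). FBtr0071502 was at -0.84 (SE 0.07), FBtr0084288 at 0.66 (SE 0.06) and FBtr0072121 at 0.63 (SE 0.08). Without any array of BEAF+CP190 or CTCF+CP190 fewer members were called in each direction, and so were fewer of all transcripts.

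In the first set, where no cells had SuHw knockdown, CP190 against control raised 11 of the 79 and lowered 32, where 15.5% of all transcripts rose, 19.4% fell and 35.0% passed in either direction. With quantile normalization 17 rose and 28 fell, and the shares of all transcripts moved the same way, to 18.7% higher and 17.4% lower. FBtr0078025 had 7.55 and 7.45 in CP190 and 9.27 and 9.21 in control arrays, a change of -1.74 (SE 0.15, adjusted p = 4.47e-06), and FBtr0079485 was at -1.195 (SE 0.11, adjusted p = 8.97e-06). The largest rises were in 2 lower members, FBtr0080166 by 0.81 (SE 0.06) and FBtr0084471 by 0.64 (SE 0.12). Of the 74 higher members 9 rose and 30 fell, with a median of -0.19 and a largest rise of 0.60.

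BEAF against control raised 11 of the 79 and lowered 35, where 21.7% of all transcripts rose, 20.0% fell and 41.7% passed in either direction. It shares its 2 control arrays with CP190 against control, so the 2 comparisons are not independent. FBtr0078025 had 7.13 and 7.81 in BEAF arrays, a change of -1.77 (SE 0.15, adjusted p = 2.74e-06). FBtr0071502 had 9.62 and 9.88 in BEAF and 11.14 and 11.05 in control arrays, a change of -1.35 (SE 0.07, adjusted p = 2.12e-07). FBtr0072632 rose by 0.72 (SE 0.11), and FBtr0088597, whose signal was 4.51 higher with SuHw knockdown within the second set, rose by 0.57 (SE 0.13).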

How the data were processed

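The deposited table gives the authors' log2 signal of 16637 transcripts on 18 arrays. The submitters' processing notes name the tools RMA and Partek, with versions and genome build not given in the sources used here, as is whether all arrays were normalized together. No further normalization or filter was applied. Members and lists were chosen with earlier results of these data known. For the tests, limma 3.58.1 (R 4.3.3) estimated each group's mean in 1 model of the 18 arrays, with 9 residual and 3.68 prior degrees of freedom. Benjamini-Hochberg adjustment ran over the 16637 p-values of each comparison, with calls at 0.05. The fit was tested on simulated data. Precision is limited by having 2 arrays in a group. Identifiers were named by rule: the 2 largest and 2 smallest values of each comparison among those past the threshold, and members at the threshold of the choice. Of a 17-gene list put together for insulator and architectural proteins 1 gene, SuUR, was paired with a transcript, which is no member. The genes of SuHw, CP190, CTCF and BEAF were on that list and were not paired. Of 15 neuronal, 10 blood cell and 13 other marker genes 0 were, so these lists were not run. Alternatives were other gaps, quantile and median normalization, a fit per set, a variance trend, a filter on signal, a replicate block and leaving out arrays.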

Additional observations from a re-analysis of the deposited data

Results flagged for a closer look

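The effect of adding CP190 knockdown differed between the SuHw and the CTCF background for 17 of the 79 transcripts (limma interaction, adjusted p under 0.05). The members had been chosen on the same 8 arrays by their distance between backgrounds, so this count is a description and supports nothing about the list. The differences, with SuHw minus with CTCF, were 1.33 for FBtr0080166 and 1.03 for FBtr0070832, and -2.29 for FBtr0076529 and -1.62 for FBtr0081104. These values came up because the same contrast gave different results in 2 backgrounds by a test of the difference itself. Fewer members were called without CTCF replicate 1, and so were fewer of all transcripts.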

How the results depend on the processing

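The count of 79 was 46 with a gap of 1 (45 higher, 1 lower), 163 with a gap of 0.3 (141 and 22) and 16 among transcripts above the median signal. It was 218 with the 2 SuHw arrays alone against the 8, 121 without replicate 1 of every group, 79 to 121 over the choices that left out replicates, and 144 and 345 when chosen on 6 of the 12 arrays, with and without CP190 depletion, since fewer arrays have to be passed. Quantile normalization gave 86. With the 46 members of the gap of 1, 28 were called for CP190 added to SuHw, 23 for CP190 and 22 for BEAF against control, 24 for CP190 and 16 for BEAF added to CTCF, 13 for BEAF against CTCF with CP190 depleted and 8 for the difference of CP190 effects. Above the median signal, where 16 members were tested, these counts were 15, 13, 14, 14, 12, 11 and 5, where 36.0%, 44.0%, 51.8%, 33.1%, 27.9%, 4.92% and 2.01% of all transcripts above it were called. Leaving out 1 array of the groups compared gave 37 to 44, 34 to 42, 38 to 44, 24 to 28, 16 to 21, 9 to 17 and 11 to 17 in the same order, against 49, 43, 46, 40, 27, 24 and 17 with all arrays. Of 112 alternative counts 84 stayed within 1.5 times, and all 275 alternative values of single named transcripts kept their direction and their call. In the tested comparisons transcripts were named for the largest changes past the threshold, so this was likely and says little about the other members. The count of 51 members beyond the gap from the first set was 51 to 54 without 1 of its arrays. With the replicate number as a block the 7 counts were 49, 45, 46, 43, 26, 25 and 16, and differences between replicates correlated between groups at -0.20 to 0.45 over 36 pairs of groups, above 0.1 in 10. All 6 pairs among SuHw, BEAF+CTCF, CTCF+CP190 and BEAF+CP190 were at 0.17 to 0.45. The labels give no shared source to a number and not every pair was above 0.1, so the numbers were not treated as a pairing, and an effect shared by some groups was not tested.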

Other observations

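Identifiers of 32 of the 79 transcripts lay within 5 numbers of another member's, in 14 runs of at most 3, and every run held members of 1 direction. Over the 14 arrays without SuHw knockdown the 22 pairs within such runs correlated at a median of 0.89 (0.31 to 0.998), while the 2689 other pairs of 1 direction had a median of 0.09. Whether neighbouring identifiers belong to 1 gene was not tested. The spread between replicates over the 79 was largest in SuHw arrays, with a root mean square SD of 0.16 on the log2 scale, and smallest in CTCF arrays, with 0.087 (n = 2 arrays each). Over all transcripts the same groups were the extremes, with 0.148 and 0.081, so this is not particular to the 79.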
